A study of Mus musculus with 11 samples.

Results

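The MHC class II presentation genes are the set through which cells display peptides taken up from their surroundings to CD4+ T cells. The set followed here is defined by symbol: the chains H2-Aa, H2-Ab1 and H2-Eb1, the chaperones H2-DMa, H2-DMb1, H2-Oa and H2-Ob, the invariant chain Cd74, the protease Ctss and the transactivator Ciita. A gene was measured where a probe set of the array carries its symbol and no other, and 9 of the 10 genes met this rule, out of 19938 genes with such a probe set. H2-DMb1 did not, because its probe set is annotated to H2-DMb2 as well. That shared probe set read 5.52 to 6.91 (log2) over the arrays and was assigned to neither gene. Each of the other 9 genes had 1 probe set.

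The arrays were hybridised with RNA of fibroblasts that were sorted from fresh mammary tissue of female mice and not cultured. Normal glands came from FVB/n mice of 8 weeks without the transgene (2 arrays, D2 and D5). Hyperplasia (3 arrays, D6, D7 and D12, 4 weeks), carcinoma (3 arrays, D3, D4 and D10, 9 weeks) and advanced carcinoma (3 arrays, D8, D9 and D11, 12 weeks, called late carcinoma in the labels) came from MMTV-PyMT mice, in which the mouse mammary tumour virus promoter drives the polyoma middle T oncogene in the mammary epithelium. Each array holds a pool of mice of 1 cohort, and no cohort served for more than 1 array, so the spread between arrays is a spread between pools. Age differs between all 4 groups, and age and stage cannot be told apart. Cells were sorted as CD140a+ F4/80-, with CD140a the protein of Pdgfra and F4/80 that of Adgre1. The labels add a gate on EpCAM, which the methods name for the sort of validation samples and not for that of the arrays, so whether EpCAM+ cells were gated out is not settled. No leukocyte antigen other than F4/80 is named for the sort of these arrays.

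In the class II pathway an α and a β chain pair in the endoplasmic reticulum around the invariant chain Cd74, which blocks the peptide groove and guides the complex to late endosomes. There cathepsin S (Ctss) trims the invariant chain to a short remnant, the DM heterodimer (H2-DMa with an H2-DMb chain) exchanges the remnant for a peptide, and the DO heterodimer (H2-Oa with H2-Ob) restrains DM. Ciita is the co-activator that switches the genes on: dendritic cells, B cells and macrophages use it constitutively or on activation, and fibroblasts and epithelium can be induced to do so by interferon gamma. Some mouse haplotypes, that of FVB/n among them, make no working I-E α chain, so that H2-Eb1 there lacks its partner.

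Ciita does not bind DNA itself but docks on a set of factors at an X box and a Y box in front of each class II gene. The promoter windows of RefSeq (GRCm38.p6, 250 bases before to 50 after a start) were searched on both strands for the X core GCAAC and the Y core ATTGG, which do not overlap each other. The table held a window for 6 of the 9 measured genes. The X core occurs in 35.2% and the Y core in 37.4% of all 32851 windows, while an X core followed on the same strand by a Y core with 15 to 35 bases between them occurs in 1.02%. H2-Aa, H2-Eb1, H2-Oa and H2-Ob carried this pair, 4 of the 6 genes. Their stretches are shown because they are the sequence feature that these genes share, with the X and Y cores in capitals, read 5′ to 3′ on the strand of the gene:
H2-Aa, chr17:34287852-34287919, minus strand: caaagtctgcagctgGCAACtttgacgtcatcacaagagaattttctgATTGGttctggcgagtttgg
H2-Eb1, chr17:34305761-34305827, plus strand: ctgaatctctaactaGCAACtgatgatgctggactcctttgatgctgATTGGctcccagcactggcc
H2-Oa, chr17:34092288-34092355, plus strand: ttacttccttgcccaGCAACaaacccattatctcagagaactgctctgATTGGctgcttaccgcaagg
H2-Ob, chr17:34238803-34238867, plus strand: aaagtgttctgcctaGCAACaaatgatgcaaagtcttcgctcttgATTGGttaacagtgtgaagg
The cores are 28 bases apart in H2-Aa and H2-Oa, 27 in H2-Eb1 and 25 in H2-Ob, and the Y core begins 43 to 59 bases before the start. The H2-DMa windows held an X core in one and a Y core in the other, and that of Ctss neither. A match of letters is a description and not a measured site. All 6 measured chain and chaperone genes lie between positions 34092379 and 34316674 of chromosome 17, Ctss lies on chromosome 3 and Ciita on chromosome 16.

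A property of the deposited values touches every result. Advanced carcinoma D11 and normal D2 lie, for each probe set, at the same distance on opposite sides of the average of the remaining 9 arrays, with a largest gap of 0.000144 (log2), whereas the next closest pair of arrays had a largest gap of 3.555. Where D2 lies above that average, D11 therefore lies below it by as much, and these 2 arrays are not independent measurements. Neither the methods nor the labels name a step that does this. Values are log2 expression after the robust multi-average (RMA) normalisation of the authors, so that a difference of 1 is a 2-fold change, and array medians ran between 5.28 and 5.39.

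The sort's own markers were read in the same arrays. Pdgfra was at 9.21 to 11.01 in carcinoma and advanced carcinoma fibroblasts, together called CAFs, against 10.80 to 11.35 in normal and hyperplasia fibroblasts. Adgre1, which encodes the antigen used to remove macrophages, was at 5.18 to 7.66 in CAFs and 3.73 to 5.07 in the others. Epcam was at 8.69 to 9.91 in CAFs and 6.02 to 8.01 in the others. Ptprc, which encodes the leukocyte antigen CD45, was at 7.60 to 9.41 in CAFs, against 8.14 to 10.42 in normal and hyperplasia fibroblasts. In bulk samples such as these, fewer cells of a type and less RNA per cell cannot be told apart.

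In most class II genes pools of the same stage lay further apart than the stage means. The I-A α chain gene H2-Aa was at 8.55 and 7.60 (log2) in normal glands, at 6.77, 7.74 and 8.57 in hyperplasia, at 8.17, 8.42 and 7.52 in carcinoma and at 8.55, 8.51 and 7.42 in advanced carcinoma, in the order of the arrays given above. Every stage thus held at least 1 high and 1 low pool, and all stages overlapped. The largest range within a stage exceeded the largest difference between the means of any 2 groups in 8 of the 9 genes. A range of single arrays tends to exceed a difference between means of several arrays. The count was not made for all genes, so it describes these genes and shows no trait particular to them. For H2-Aa these were 1.80 and 0.47, for Ciita 1.25 and 0.09, and only for Ctss was the difference between groups the larger, at 2.02 against a range of 1.74.

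The same pools were high for nearly all members. In normal glands 9 of 9 genes were higher in D2 than in D5, by a median of 0.92, where 45.5% of all genes were higher. In hyperplasia all 9 were highest in D12, intermediate in D7 and lowest in D6. D12 exceeded D6 by a median of 1.34 and, for Cd74, by 2.33, where 42.8% of all genes were higher in D12. In carcinoma 8 of 9 were higher in D4 than in D10, by a median of 0.88, with H2-Oa at nearly equal levels. Of all genes 51.9% were higher in D4. In advanced carcinoma all 9 were higher in D8 and in D9 than in D11, by medians of 1.02 and 1.09, while D8 and D9 differed by a median of 0.04. Of all genes 45.4% were higher in D8 and 46% in D9 than in D11. The high D2 and the low D11 are 1 observation and not 2, because of the tie between these arrays. Of the 9 genes 6 had their lowest value in hyperplasia D6 and 3 in advanced carcinoma D11. The order of pools within stages is not particular to the class II genes. Means of the pan-leukocyte list described below were 9.70 in D2 and 7.84 in D5, and 10.15, 8.84 and 8.01 in D12, D7 and D6. They were 9.17 in D4, 8.01 in D10, and 8.78, 8.81 and 7.62 in D8, D9 and D11. The macrophage, dendritic cell and luminal epithelium lists had the same order. The fibroblast list had the reverse, and the endothelial list differed in hyperplasia.

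**Figure D1:**
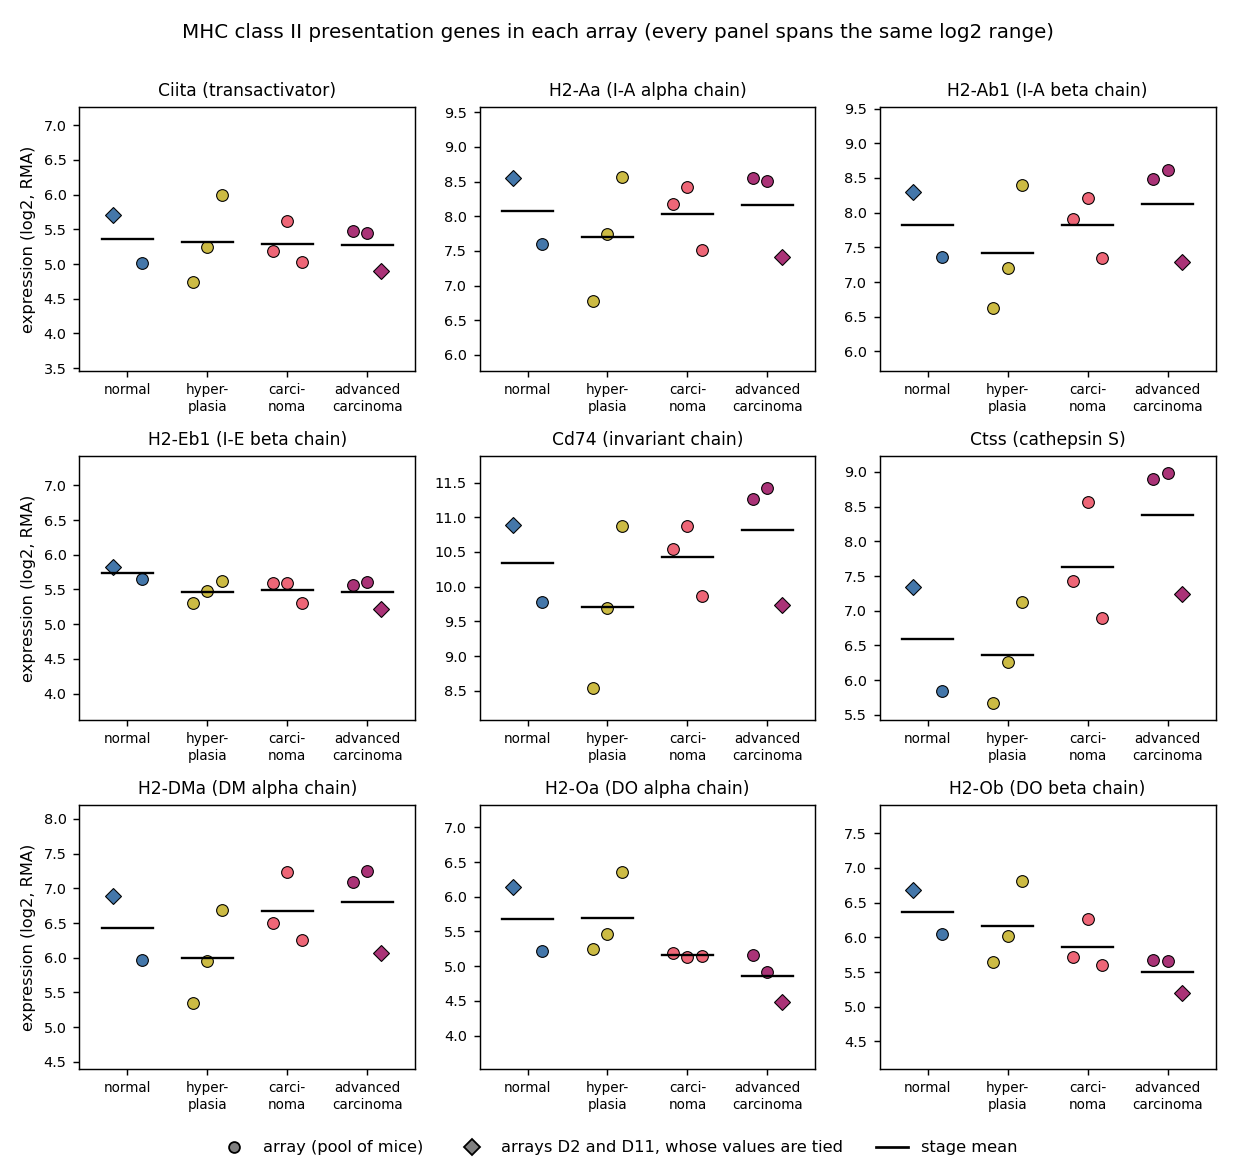
Expression (log2, RMA values) of each of the 9 genes by stage, with 1 point per array, the stage mean as a line and the tied arrays D2 and D11 as diamonds. Points of different stages overlap in most panels, and D6 is the lowest hyperplasia array in every panel.

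The comparison of CAFs with fibroblasts of normal glands and hyperplasia asks whether tumour fibroblasts differ in class II presentation. In limma's test over all genes, Ctss was higher and H2-Oa lower in CAFs, and the remaining 7 genes did not pass. Of all 19938 genes 24.9% were called (adjusted p under 0.05), 2402 higher and 2559 lower, and 2 calls among 9 members are close to that share. The members' median change was 0.25 (log2), against -0.04 for all genes, with 5 changes positive and 4 negative. Unadjusted p-values were under 0.05 for 3 of 9 members in limma, and for 7647 of all 19938 genes. One-way ANOVA contrasts of CAFs were fitted with the same 2 groups and not with the 4 stages. Differences between stages within a group thus stay in the spread. In these contrasts 0 members passed after adjustment, against 2117 higher and 2204 lower calls among all genes. These contrasts gave an unadjusted p under 0.05 for 2 members and for 7552 of all genes.

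**Figure D2:**
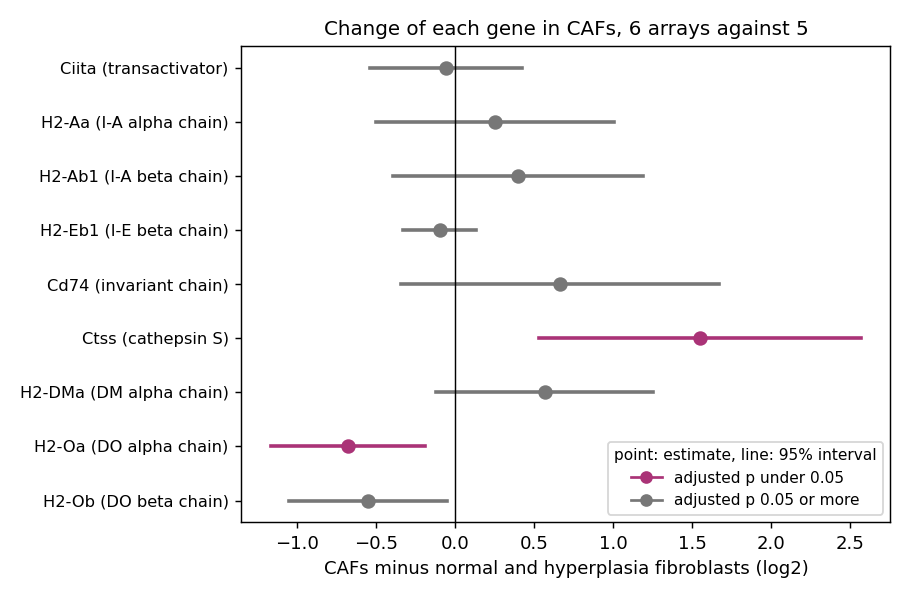
Change of each gene in CAFs (6 arrays) minus normal and hyperplasia fibroblasts (5 arrays), in log2 units, with points for the estimate, lines for the 95% interval and colour for an adjusted p under 0.05. Ctss lies to the right of 0 and H2-Oa to the left, and H2-Ob is the other gene whose interval leaves out 0.

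Among the chains that carry the peptide, H2-Aa averaged 8.10 ± 0.51 in CAFs and 7.85 ± 0.75 in normal and hyperplasia fibroblasts (SD over 6 and 5 arrays), a change of 0.25 with a 95% interval of -0.50 to 1.0 (limma adjusted p = 0.624). Its partner H2-Ab1, the I-A β chain gene, was at 7.29 to 8.62 in CAFs and at 6.62 to 8.41 in the others, a change of 0.40 (interval -0.39 to 1.19, limma adjusted p = 0.446). H2-Eb1, the I-E β chain gene, varied little: it was at 5.22 to 5.60 in CAFs and at 5.31 to 5.83 in the others, a change of -0.10 (interval -0.33 to 0.13, limma adjusted p = 0.520). All 3 intervals include 0, and that of H2-Eb1 is the narrowest. H2-Eb1 lies below the median level of all genes, 5.64.

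Cd74 was at 10.90 and 9.78 in normal glands, at 8.54, 9.69 and 10.87 in hyperplasia, at 10.54, 10.88 and 9.87 in carcinoma and at 11.27, 11.42 and 9.74 in advanced carcinoma. Its 2 highest values belonged to advanced carcinoma D8 and D9, and its lowest to hyperplasia D6, with normal D2 and hyperplasia D12 at the level of carcinoma D4. The mean was 10.62 ± 0.70 in CAFs and 9.95 ± 0.98 in the others (SD), a change of 0.66 with an interval of -0.34 to 1.67 (limma adjusted p = 0.311). The DM chain gene H2-DMa was at 6.07 to 7.25 in CAFs and 5.34 to 6.89 in the others, with a change of 0.57 (interval -0.12 to 1.25, limma adjusted p = 0.206). Without hyperplasia D6 the changes of H2-Ab1, Cd74 and H2-DMa were 0.16, 0.31 and 0.36, and without the tied arrays they were 0.72, 1.07 and 0.88, with no call in either setting.

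Ctss encodes cathepsin S, the protease that removes the invariant chain and that macrophages and other leukocytes hold in quantity. It was at 7.35 and 5.84 in normal glands, at 5.67, 6.27 and 7.13 in hyperplasia, at 7.43, 8.56 and 6.89 in carcinoma and at 8.90, 8.98 and 7.25 in advanced carcinoma. The CAF arrays D4, D8 and D9 stood above all others, while carcinoma D10 and advanced carcinoma D11 lay below normal D2. Ctss averaged 8.00 ± 0.92 in CAFs and 6.45 ± 0.76 in normal and hyperplasia fibroblasts (SD), 2.93-fold higher, with a log2 change of 1.55 ± 0.46 (SE), an interval of 0.53 to 2.57 and a limma adjusted p of 0.0319. The adjusted p was 0.0553 to 0.0786 when normal D5, hyperplasia D6 or D7, carcinoma D4, or advanced carcinoma D8 or D9 was left out, 0.0602 in one-way ANOVA contrasts and 0.0755 with array weights. The change itself was between 1.22 and 2.08 over all alternatives run.

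Macrophage markers moved in the same arrays. Of 12 macrophage genes 11 were called higher in CAFs and 0 lower, with a median change of 2.20, and their mean level ran between 6.26 and 8.14 in CAFs against 4.79 and 6.15 in the others. The list mean was highest in advanced carcinoma D9 (8.14) and D8 (7.99) and in carcinoma D4 (7.77), the 3 arrays in which Ctss was highest. This order is not particular to macrophage genes. The luminal epithelium markers described below also had their highest means in D4 (9.91), D8 (9.70) and D9 (9.68). So did the genes listed below for antigen-presenting CAFs (4.97, 4.88 and 4.93 in the same order). Lyz2 (lysozyme) changed by 2.83, Cd14 (the lipopolysaccharide co-receptor) by 2.44, C1qb (a complement C1q chain) by 2.52 and Adgre1 by 2.32, whereas the phagocytic receptor gene Mertk, at 6.66 ± 0.21 in CAFs and 6.70 ± 0.24 in the others (SD), did not pass. Of the macrophage list 3 genes lay below the median level of all genes. The part of these lists in the Ctss result was not tested.

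H2-Oa and H2-Ob, the chains of the DO heterodimer that B cells and some dendritic cells make, were the members with the most negative changes in CAFs. H2-Oa was at 6.14 and 5.22 in normal glands, at 5.25, 5.46 and 6.35 in hyperplasia, at 5.19, 5.14 and 5.14 in carcinoma and at 5.15, 4.92 and 4.49 in advanced carcinoma. The groups did not overlap, but the margin was small: the highest CAF array was at 5.19 and the lowest other array at 5.22. Every CAF array lay below every other array in 7.14% of all genes.

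H2-Oa averaged 5.0 ± 0.27 in CAFs and 5.68 ± 0.53 in normal and hyperplasia fibroblasts (SD), 1.60-fold lower, with a log2 change of -0.68 ± 0.22 (SE), an interval of -1.17 to -0.19 and a limma adjusted p of 0.0451. The call was lost when any 1 array other than normal D5 or hyperplasia D6 was left out (adjusted p 0.0526 to 0.0984), with a term for the tied arrays (0.0641), without them (0.157) and in one-way ANOVA contrasts (0.0764). Normal D2 and hyperplasia D12 were the 2 arrays with the highest values. Leaving out both, a setting chosen after their B cell markers had been seen and one in which a smaller fall follows from the choice, gave a change of -0.31 (adjusted p = 0.186). H2-Oa lies below the median level of all genes.

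H2-Ob was at 6.68 and 6.04 in normal glands, at 5.64, 6.02 and 6.82 in hyperplasia, at 5.72, 6.27 and 5.61 in carcinoma and at 5.67, 5.66 and 5.20 in advanced carcinoma. Again D2 and D12 were the highest arrays, and the groups overlapped through hyperplasia D6 and carcinoma D4. The change in CAFs was -0.55 ± 0.23 (SE), with an interval of -1.06 to -0.05 and a limma adjusted p of 0.0996. Without hyperplasia D6 or carcinoma D4 the adjusted p was 0.0478 and 0.0440, with median-centred arrays 0.0341 and with array weights 0.0126. Without the tied arrays the change was -0.34 (adjusted p = 0.313), and without D2 and D12 it was -0.21 (0.471), where a smaller fall again follows from the choice of arrays.

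B cell and T cell markers were highest in the same 2 pools. They were not alone in this: the dendritic cell list described below had its highest means in D2 and D12 (6.14 in each). The other class II chains (6.43 in each) and the MHC class I list (8.18 in D2 and 8.31 in D12) were highest there too. Of 9 measured B cell genes 4 were called lower in CAFs and 0 higher, with a median change of -0.97, and the list mean was 5.44 to 6.72 in CAFs against 6.27 to 7.94 in the others, where hyperplasia D12 had 7.94 and normal D2 had 7.57. Cd79a and Cd79b, the signalling chains of the B cell receptor, changed by -1.36 and -1.31, the surface antigen gene Ms4a1 by -1.34 and the IgE receptor gene Fcer2a by -1.24. Of 9 T and NK cell genes 4 were called lower (Cd3e, Cd4, Cd8a and Cd2), with a median change of -1.37 and a list mean of 5.24 to 6.75 in CAFs against 5.98 to 8.34 in the others. Of the B cell list 2 genes and of the T and NK cell list 3 lay below the median level of all genes. The part of these lists in the H2-Oa and H2-Ob results was not tested.

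Ciita was at 5.71 and 5.01 in normal glands, at 4.74, 5.24 and 5.99 in hyperplasia, at 5.19, 5.63 and 5.03 in carcinoma and at 5.47, 5.44 and 4.90 in advanced carcinoma. Its stage means, 5.36, 5.32, 5.28 and 5.27, lay closer together than those of any other member. Ciita averaged 5.31 over the arrays and lies below the median level of all genes, 5.64. The change in CAFs was -0.06, with an interval of -0.54 to 0.42 (limma adjusted p = 0.866), and its sign was positive, at 0.11, without the tied arrays and at 0.28 without normal D2 and hyperplasia D12.

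Comparisons between single stages called no member. In limma 0 of 9 genes passed in advanced carcinoma against normal glands, where 5.61% of all genes did, 0 in carcinoma against normal glands (0.938%) and 0 in hyperplasia against normal glands (0.0%). Likewise 0 passed in carcinoma against hyperplasia (9.25%), 0 in advanced carcinoma against hyperplasia (14.5%) and 0 in advanced carcinoma against carcinoma (0.0%). In advanced carcinoma against normal glands unadjusted p-values were under 0.05 for 3 members (Ctss, H2-Oa and H2-Ob) and for 4502 of all 19938 genes. In advanced carcinoma against hyperplasia this held for 2 members (Ctss and H2-Oa) and for 6252 of all genes. In the other 4 comparisons it held for 0 members. Among all genes the counts there were 3595 and 841 for carcinoma and hyperplasia against normal glands. They were 5588 for carcinoma against hyperplasia and 1124 for advanced carcinoma against carcinoma. One-way ANOVA contrasts called 0 members in each of the 6 comparisons. They gave 1 member an unadjusted p under 0.05, in advanced carcinoma against hyperplasia, where 5996 of all genes had one. The comparisons share arrays, so they are not independent of each other.

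The widest difference was that of Ctss, which averaged 8.38 in advanced carcinoma and 6.36 in hyperplasia, a change of 2.02 (interval 0.57 to 3.47, limma adjusted p = 0.0663). The adjusted p of Ctss in advanced carcinoma against normal glands was 0.182, with a change of 1.78 (interval 0.16 to 3.40). Leaving out normal D5 gave 1.03, leaving out normal D2 gave 2.54, and 3.10 was reached without the tied arrays. Each of these settings compares with a single normal array. H2-Oa changed by -0.83 against hyperplasia (limma adjusted p = 0.109) and by -0.83 against normal glands (0.207), and H2-Ob by -0.85 against normal glands (0.191). Against normal glands their changes were -0.37 and -0.53 without normal D2, and -0.18 and -0.38 without the tied arrays. In both settings D5 was the only normal array. Cd74 averaged 10.81 in advanced carcinoma, 9.70 in hyperplasia and 10.34 in normal glands, changes of 1.11 and 0.47 whose intervals include 0 (-0.34 to 2.56 and -1.15 to 2.10). In hyperplasia against normal glands 8 of 9 changes were negative, with a median of -0.27 against 0.01 for all genes, and every member's adjusted p was 0.999.

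In 5 lists of the pathway around these genes 33 genes were measured in CAFs against the others, and 3 of them were called higher and 10 lower. Among all genes 24.9% were called, 2402 higher and 2559 lower. No gene of the other class II chains passed (2 measured): H2-Ea changed by -0.20 and H2-Eb2, a further β chain gene, by -0.44 (limma adjusted p = 0.0592). Of 7 genes for factors that bind the X and Y boxes, only Rfxap, a subunit of the RFX complex of the X box, was called, at -0.20 (limma adjusted p = 0.0277), and the median change of the list was -0.0010.

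Interferon gamma signalling held the most lower calls. Of 7 measured genes 5 were called lower and 0 higher, with a median change of -0.27 and with all 7 changes negative. The receptor chain gene Ifngr1 was at 9.99 ± 0.23 in CAFs and 10.38 ± 0.15 in the others (SD), a change of -0.38, and the kinase genes Jak1 and Jak2 changed by -0.32 and -0.27. The cytokine gene Ifng itself changed by -0.29 and lies, at 4.62 in CAFs and 4.91 in the others, below the median level of all genes, as does the inhibitor gene Socs1 (-0.25). Irf1, a transcription factor gene that interferon gamma induces, changed by -0.12 and did not pass (limma adjusted p = 0.442). Without the tied arrays none of the 5 calls remained (adjusted p 0.0626 to 0.0861), while the changes were -0.27 to -0.41. With single arrays left out in turn, Ifng kept its call each time, and the call was lost for 5 of 11 arrays in Ifngr1 (adjusted p up to 0.0748), for 8 in Jak1 (0.0681) and in Jak2 (0.0772) and for 10 in Socs1 (0.101).

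Proteases of the lysosome went both ways. Lgmn, the asparagine endopeptidase, was higher in CAFs, at 10.09 ± 0.33 against 9.32 ± 0.17 in the others (SD), a change of 0.77 (limma adjusted p = 0.00480). Ctsd, cathepsin D, was higher by 0.67 (limma adjusted p = 0.00423). Ctsl, cathepsin L, which takes the place of cathepsin S in thymic epithelium, was lower by a change of -0.59 (0.0241), and the cathepsin inhibitor gene Cst3 by one of -0.25 (0.0291). The list of 8 had a median change of -0.15, and Ctsb, Ctsh, Ctsz and the thiol reductase gene Ifi30 did not pass. Lgmn and Ctsd were called under all 21 alternatives, Ctsl under all except those without hyperplasia D6 (0.0598) or D7 (0.0590), and Cst3 was lost under 7.

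Of 9 genes for surface turnover and co-signals, Cd80, a ligand of the T cell receptor CD28, was called higher (0.55, limma adjusted p = 0.0200). Icosl, the ICOS ligand gene, was called lower (-0.59, 0.00648), and so was Cd274, which encodes the inhibitory ligand PD-L1 (-0.48, 0.0330). Cd86, the other CD28 ligand gene, was at 5.43 ± 0.62 in CAFs and 5.25 ± 0.58 in the others (SD) and did not pass. Icosl was called under all 21 alternatives, whereas Cd80 was lost without the tied arrays (0.0567) and Cd274 under 10 alternatives.

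Genes of the MHC class I pathway, which presents peptides from within the cell, gave a comparison with the class II set. The chain genes H2-K1 and H2-D1 share their probe sets with other symbols and were not measured. The 9 measured genes were B2m, Tap1, Tap2, Tapbp, Psmb8, Psmb9, Psmb10, Nlrc5 and Erap1, so the chains that hold the peptide were not compared. All 9 measured genes had negative changes in CAFs, with a median of -0.30, and 1 was called, the immunoproteasome subunit gene Psmb10 at 7.47 ± 0.05 in CAFs and 7.87 ± 0.08 in the others (SD; change -0.40, limma adjusted p = 0.0004). Unadjusted p-values were under 0.05 for 8 of the 9, and for 7647 of all 19938 genes. The count depended on the scaling of the arrays: 8 were called after centring each array on its median, 3 after quantile normalization and 6 with array weights. Psmb10 was called under every alternative.

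**Figure D3:**
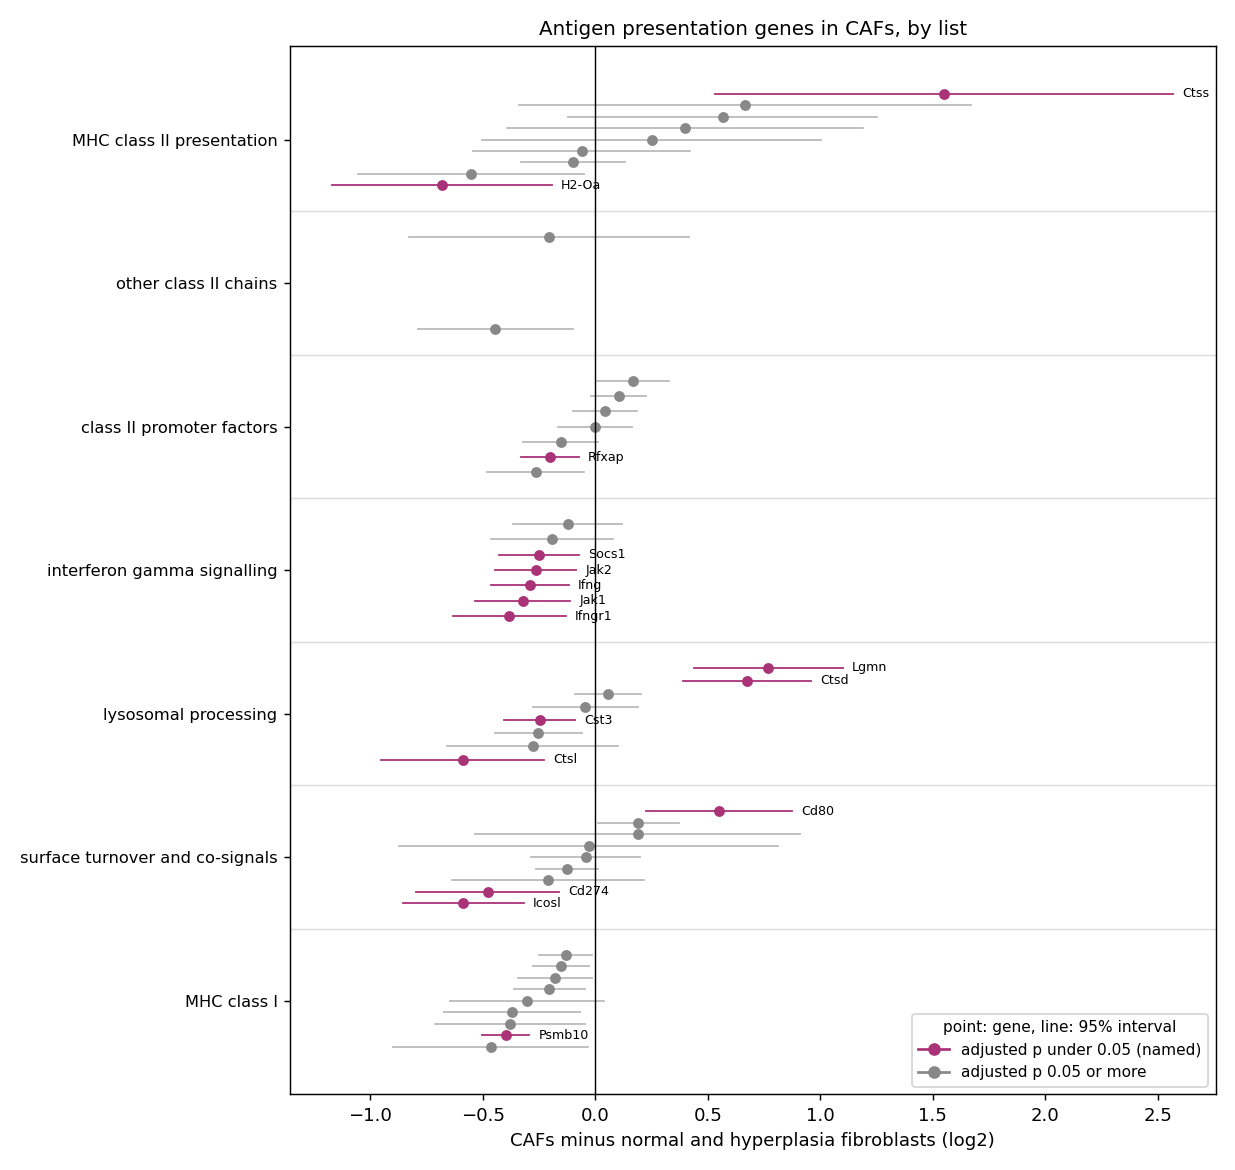
Change of each measured gene of 7 lists in CAFs minus normal and hyperplasia fibroblasts, in log2 units, with points for genes, lines for 95% intervals and names for genes with an adjusted p under 0.05. The 5 interferon gamma signalling genes called lower and the spread of the class II members on both sides of 0 can be seen.

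Markers of other cells were read in the same arrays. The pan-leukocyte list, in which 0 of 8 genes passed (median change -0.63, unadjusted p under 0.05 for 1), had its highest means in hyperplasia D12 (10.15) and normal D2 (9.70) and its lowest in advanced carcinoma D11 (7.62) and normal D5 (7.84). Of 10 dendritic cell genes the integrin gene Itgax was called higher (0.99) and Ccr7, Flt3 and Zbtb46 lower (-1.53, -0.55 and -0.29), with a list mean of 5.23 to 5.82 in CAFs and 5.39 to 6.14 in the others, and 7 of the 10 lay below the median level of all genes. Epithelial RNA was higher in CAFs, with 7 of 8 luminal genes called (median change 1.91, list mean 8.75 to 9.91 in CAFs and 6.52 to 8.29 in the others). Fibroblast genes had a median change of -0.51 with 0 of 10 called (unadjusted p under 0.05 for 4), and their list mean was 9.45 in carcinoma D4, against 10.86 to 11.36 in the other arrays. Among all 19938 genes 7647 had an unadjusted p under 0.05 in limma in this comparison. Of 5 endothelial genes only Tek was called, lower (-1.72), with a list mean of 7.25 to 8.31 in CAFs and 7.48 to 8.63 in the others. The part of these cells in the class II values was not tested.

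Antigen-presenting CAFs are described in other tumours as class II positive fibroblasts that share genes with mesothelium. Of the 6 genes listed for them, Saa3 (a serum amyloid protein) and Slpi (a secreted protease inhibitor) were called higher in CAFs, by 1.24 and 0.81, and Lrrn4 was called lower, by a change of -0.17. The mesothelial genes Msln and Upk3b were at 4.12 and 4.36 in CAFs and 4.09 and 4.34 in the others, and neither passed. Of the list 5 genes lay below the median level of all genes, and its mean was 4.76 to 4.97 in CAFs against 4.5 to 4.70 in the others.

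**Figure D4:**
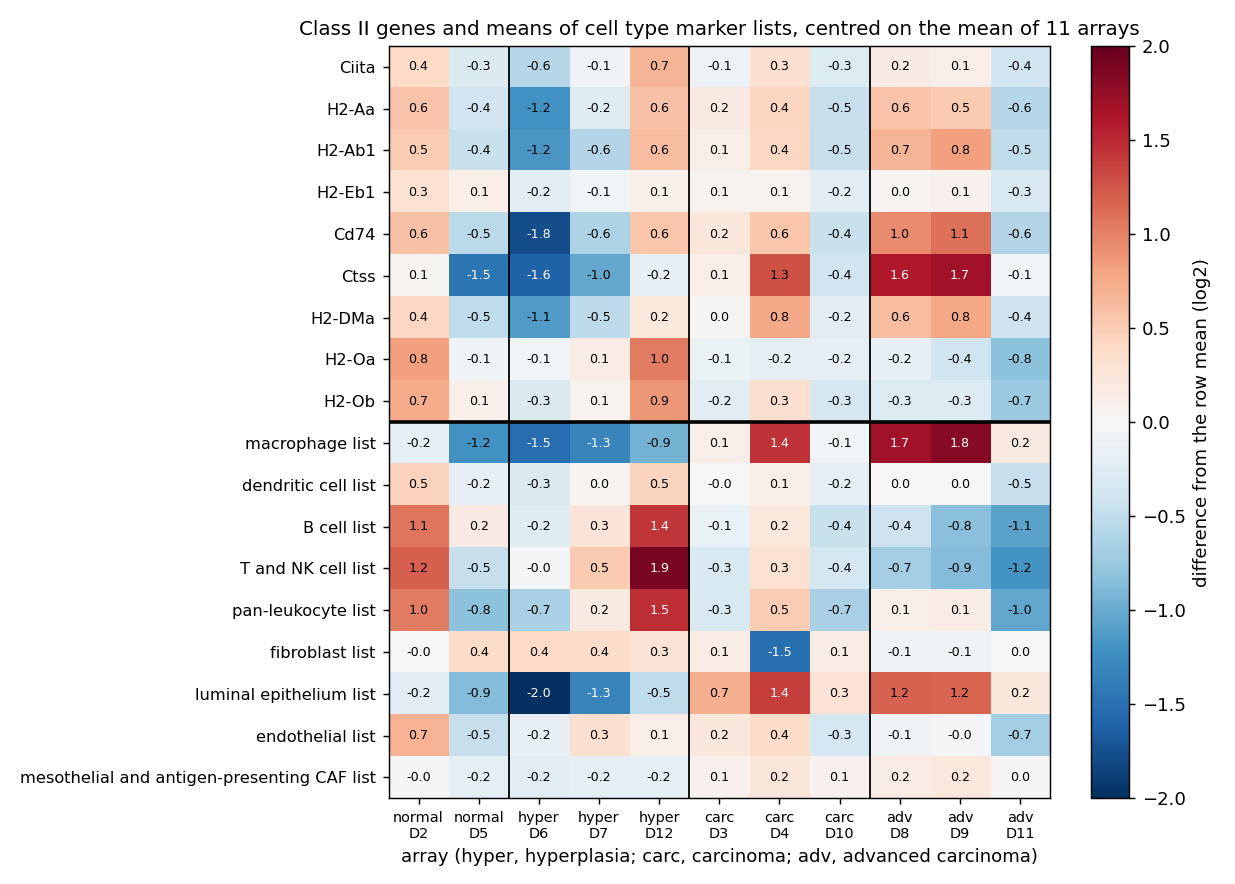
Values of the 9 class II genes and means of 9 cell type marker lists in each array, centred on the mean of the 11 arrays, in log2 units, with stages in order and colours from blue (below the mean) to red (above). Hyperplasia D6 lies below the mean for all 9 class II genes, but close to it and pale for H2-Oa and H2-Eb1. D2 and D12 are red for H2-Oa, H2-Ob and the B cell, T cell, dendritic cell and pan-leukocyte lists. D4, D8 and D9 are red for Ctss and the macrophage and luminal epithelium lists.

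The genes whose values followed the class II pattern most closely over the 11 arrays were sought by the root mean square difference, in log2 units, between their centred values and the mean centred profile of H2-Aa, H2-Ab1, H2-Eb1 and Cd74. Members and predicted genes (Gm, Rik, LOC, BC, AI and AW names) were left aside. Among the 4566 other genes that varied enough, in which the median difference was 0.71, the 10 nearest had differences of 0.18 to 0.24. They were Themis2, an adaptor of lymphoid and myeloid signalling, Neurl3, Cd86, Sema4a, Irf5, a transcription factor of Toll-like receptor signalling, Plbd1, Bcam, Cd72, a B cell co-receptor, Prag1 and Gdpd3. Themis2 was at 6.53 and 5.49 in normal glands, at 5.04, 5.54 and 6.29 in hyperplasia, at 5.79, 6.72 and 5.47 in carcinoma and at 6.58, 6.73 and 5.39 in advanced carcinoma. Like the mean profile of H2-Aa, H2-Ab1, H2-Eb1 and Cd74 it was low in D6 and D11 and high in D2, D12, D4, D8 and D9. The points share their arrays, and the order is a description.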

How the data were processed

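RNA of sorted fibroblasts was measured on Affymetrix Mouse Gene 1.0 ST arrays. The deposited values are log2 expression per probe set, which the authors normalised with the robust multi-average method (RMA) in Partek Genomics Suite 6.5; the image files were not used here. RMA scales arrays to a common distribution, so a shift of all genes in a sample cannot be read from these values. The deposited arrays still differed in their medians, which ran between 5.28 and 5.39. RMA leaves levels of different probe sets not comparable. Of 35399 probe sets, 21789 carry 1 symbol in the platform annotation, 1621 several and 11989 none here. The brightest of each symbol was kept, which left 19938 genes. Stages were taken from the sample titles.

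CAFs (6 arrays) were compared with normal and hyperplasia fibroblasts (5) in a 2-group fit of limma 3.58.1 in R 4.3.3, and stages in 1 fit of 4 groups over 11 arrays, where the methods used one-way ANOVA. P-values are two-sided and were adjusted by Benjamini-Hochberg over all genes in each of 7 comparisons, and called under 0.05. Precision is limited by the number of arrays. The scripts were tested on simulated data. Members, lists (5 of the class II pathway, MHC class I and 9 of cell type markers) and alternatives were chosen with earlier results of these data known. Named were all members, up to 4 called genes of each list with the smallest p, the sort's markers and the 10 genes nearest in pattern; further genes of the lists were named after their values were seen. Tried in turn were array weights, centring of each array on its median, a quantile step, all probe sets of a gene, only genes above the median level (5.64), a term for the tied arrays, fits without them, on 2 stages only or without 1 array, contrasts of a one-way ANOVA, and robust limma-trend. The ANOVA had 2 groups in the comparison of CAFs and 4 groups in those of stages. The fit without normal D2 and hyperplasia D12 was added after seeing the data. Listed genes without a probe set of their own were not used here.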

Additional observations from a re-analysis of the deposited data

Results flagged for a closer look

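In the 18 sets of values that were checked, those of 9 genes in CAFs (6 arrays) and in normal and hyperplasia fibroblasts (5 arrays), no array stood apart from the others by Dixon's test at the 95% level.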

How the results depend on the processing

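Against 2 members called in CAFs (H2-Oa and Ctss), 1 was called (Ctss) after removal of genes below the median level, with a term for the tied arrays, without the tied arrays and without normal D2 and hyperplasia D12, and 0 in one-way ANOVA contrasts. Leaving out 1 array at a time gave 0 to 2, with 0 without hyperplasia D7, advanced carcinoma D8 or advanced carcinoma D9, H2-Ob alone without carcinoma D4, and H2-Oa and H2-Ob without hyperplasia D6. H2-Oa was not tested once genes below the median level were removed. Against 13 pathway genes, 4 were called without the tied arrays, 8 in one-way ANOVA contrasts and 6 without D2 and D12 (Nfyc, which is none of the 13, among them), and 6 to 12 with 1 array left out. MHC class I gave 8 with median-centred arrays, 3 with quantile normalization, 6 with array weights and 1 to 4 with 1 array left out, against 1. In advanced carcinoma against hyperplasia, against 0, there were 2 with median-centred arrays (H2-Oa and Ctss), 1 without the tied arrays, 3 with array weights (H2-DMa, Cd74 and Ctss), 1 on the arrays of the 2 stages only and 0 to 1 with 1 array left out (Ctss without carcinoma D4 or advanced carcinoma D11). In advanced carcinoma against normal glands array weights called 1 (Ctss), against 0. Of the 10 genes nearest in pattern, 6 were shared without the tied arrays and 6 with scaled profiles. Bcam, Cd72, Prag1 and Gdpd3 were lost in both settings.

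Several small changes turned sign. In CAFs, H2-Aa was at -0.0697 with array weights and at -0.0173 to 0.43 with 1 array left out, H2-Eb1 at 0.0168 without the tied arrays and 0.0011 without D2 and D12, and Ciita at 0.11 and 0.28 in these settings and at -0.21 to 0.10 with 1 array left out. In advanced carcinoma against normal glands, H2-Aa was at -0.0095 with median-centred arrays, and with 1 array left out H2-Aa ran between -0.39 and 0.56, H2-Ab1 between -0.17 and 0.78, H2-DMa between -0.0837 and 0.83, Cd74 between -0.0858 and 1.03 and Ciita between -0.43 and 0.26. There Ciita was at 0.44 without the tied arrays, 0.0059 with array weights and 0.26 without D2 and D12. Every fit without normal D2 or normal D5 leaves a single normal array in that comparison. The causes were not tested.

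Counts over all genes moved as well. Median-centred arrays gave 1948 higher and 5114 lower in CAFs, against 2402 and 2559, with a median change of -0.13 against -0.04. Fits that leave a single normal array are not counted here for comparisons with normal glands. In advanced carcinoma against normal glands (1118), calls were 116 higher and 52 lower without advanced carcinoma D9 and reached 3908 with array weights. They ran between 0 and 857 in carcinoma against normal glands (187) and between 5 on 2 stages only and 2937 in carcinoma against hyperplasia (1845). They ran between 892 and 6237 in advanced carcinoma against hyperplasia (2897) and up to 1301 in advanced carcinoma against carcinoma (0). The 2 or 3 arrays per stage and the tie of D2 with D11 limit every stage comparison.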
